A study of Caenorhabditis elegans with 6 samples.

Results

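The cytosolic ribosomal protein genes of *C. elegans* were taken as all genes whose name in the count tables starts with *rpl*, *rps* or *rla*, a hyphen and a digit. This rule found 81 of 46904 genes. By name 50 were assigned to the large subunit, including the stalk genes *rla-0*, *rla-1* and *rla-2*, and 31 to the small subunit. RNA of whole worms was measured in 6 libraries, 2 for each of 3 diets. From 3 days of age, wild-type N2 hermaphrodites lived on plates with a mixture of *E. coli* OP50 and *Lactococcus lactis* LL100933 (OP50 + LL100933), a mixture of OP50 and the nisin-producing strain LL12007 (OP50 + LL12007), or OP50 alone, which is the standard food and was part of every diet. About 200 worms per group were collected after 5 days of feeding. For the first strain the sample labels and the paper differ in the collection number, and its name follows the paper. The study examined how the *Lactococcus* diets affect the worms' physiology, including locomotion, and the question followed here is whether they changed the transcripts of the ribosome.

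The ribosome has a small subunit, which reads the mRNA, and a large subunit, which joins the amino acids. Most proteins of either subunit are present about once per ribosome, so their genes tend to be expressed together and are among the most abundant transcripts of a cell. Ribosome production follows food supply and growth through TOR signalling, and in *C. elegans* the germline of the adult is a major site of it. A few of these proteins have more than 1 gene, and in worms genes on the X chromosome are largely silent in germ cells, so that such proteins can have an autosomal copy for the germline and an X-linked copy for the body.

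The libraries held 14929196 to 21691687 counts, and 14899 genes passed edgeR's filter on low counts and were tested, including 80 of the 81 ribosomal protein genes. A gene is called higher or lower where edgeR's quasi-likelihood test over all 6 libraries gave a Benjamini-Hochberg adjusted p under 0.05. Whether the 2 libraries of a diet came from separate cultures is stated nowhere in the labels or the paper's methods. The p-values therefore rest on the spread between libraries alone, which may be technical. Both comparisons with OP50 use the same 2 OP50 libraries. In RNA of whole worms, fewer cells of a type and less RNA per cell cannot be told apart. For most tested members counts were high enough that counting noise was small, so the spread between libraries sets the precision. The members with the fewest counts were *rpl-41.1* (183 to 266 counts per library) and *rpl-37* (325 to 443). For these, counting noise may be a sizeable part of the spread between libraries.

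Levels were compared between genes as RPKM, which are counts scaled to gene length and to library size. The median ribosomal protein gene had 1734 and 1498 RPKM with OP50 + LL100933, 1828 and 1710 in the OP50 + LL12007 libraries and 1782 and 1328 with OP50, where the median of all tested genes was 10.9 to 11.7 in the 6 libraries. In OP50, 77 of the 80 tested members lay above the 95th percentile of tested genes and 67 above the 99th. The median was 1658 and 1368 RPKM for the large subunit and 1884 and 1688 for the small subunit with OP50 + LL100933, 1622 and 1455 for the large and 2026 and 1792 for the small with OP50 + LL12007, and 1639 and 1232 for the large and 1928 and 1446 for the small with OP50. The small subunit genes thus had the higher median in each library.

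The 5 members with the highest mean level in OP50 were *rpl-25.2*, *rpl-6*, *rpl-2*, *rps-8* and *rps-3*. *rpl-25.2* encodes a protein at the exit of the peptide tunnel and averaged 5820 ± 1606 RPKM with OP50 + LL100933, 4631 ± 749 with OP50 + LL12007 and 5629 ± 448 with OP50 (SD, n = 2 each). *rps-3*, whose protein lines the entry of the mRNA, averaged 4338 ± 486, 4580 ± 209 and 4369 ± 1050 RPKM (OP50 + LL100933, OP50 + LL12007 and OP50). At the other end *rps-22* averaged 384 ± 17.8, 467 ± 8.06 and 395 ± 74.3 RPKM in the same order. Below it stood *rpl-24.2* with 117 ± 6.70, 113 ± 0.206 and 107 ± 4.69 RPKM. Its product resembles a yeast factor that holds the place of the ribosomal protein during assembly, and its level was far below that of *rpl-24.1*, at 4209 ± 147, 4786 ± 171 and 4314 ± 881 RPKM. *rpl-37* followed with 60.8 ± 1.99, 77.55 ± 2.099 and 55.9 ± 4.11 RPKM and *rpl-41.1* with 37.7 ± 5.51, 44.99 ± 0.221 and 31.6 ± 3.21. The highest and the lowest tested member were 178-fold apart in OP50. In this order 76 of 80 neighbouring pairs overlapped between their OP50 libraries, and the other 4 pairs were those from *rps-22* downward. The gene left untested, *rpl-42*, had 3 and 1 counts with OP50 + LL100933, 2 and 1 in the OP50 + LL12007 libraries and 5 and 2 with OP50.

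**Figure D1:**
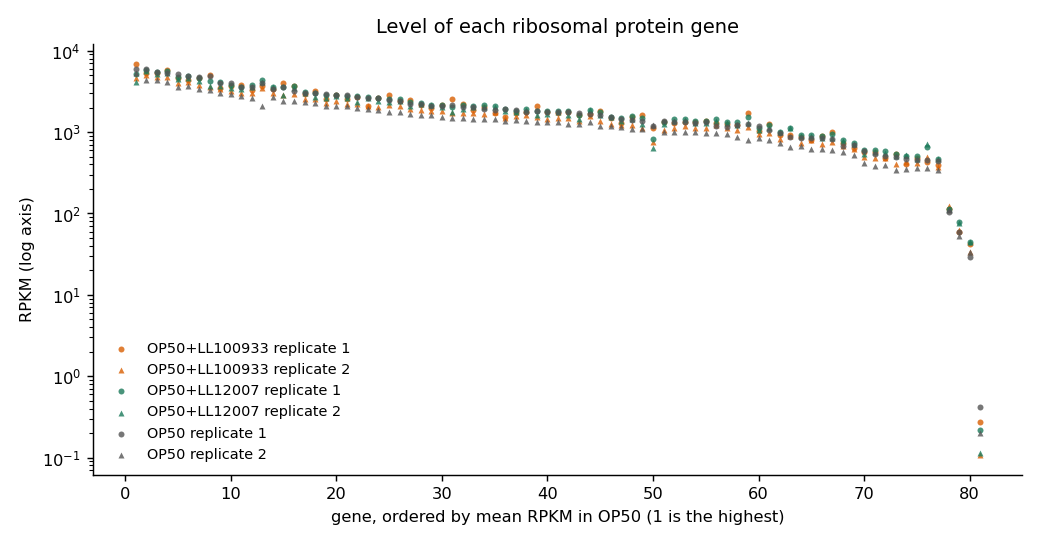
Level of each of the 81 ribosomal protein genes in RPKM (log axis) in each of the 6 libraries (circles replicate 1, triangles replicate 2), ordered by mean RPKM in OP50. The levels fall smoothly over 77 genes and then drop to *rpl-24.2*, *rpl-37*, *rpl-41.1* and, far below, *rpl-42*.

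The genes differ in length and place from the average gene. Their median length in the count tables was 545 bases (236 to 1458), and 95.1% were at most 1000 bases long, against 32.7% of all tested genes. Chromosome I held 25 of them, III and IV 18 each, II 10, V 8 and X 2, the last 2 being *rpl-11.2* and *rpl-25.1*. The X chromosome thus held 2 of 81 ribosomal protein genes (2.47%) and 2235 of the 14899 tested genes.

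The ribosomal protein genes moved together from library to library, and 1 control library stood apart. For each tested gene, the log2 normalised count in a library was set against the gene's mean over the 6 libraries. The median of these deviations was 0.09 and -0.12 for OP50 + LL100933, 0.17 and 0.08 for OP50 + LL12007 and 0.10 and -0.32 for OP50. OP50 replicate 2 was the lowest of the 6 libraries for 76 of 80 genes, including 31 of 31 of the small subunit. Between the OP50 libraries the median difference (replicate 1 minus replicate 2) was 0.42 on the log2 scale, with 77 of 80 genes higher in replicate 1, where the median over all tested genes was 0.01. The same difference was 0.22 between the OP50 + LL100933 libraries and 0.08 between the OP50 + LL12007 libraries. The low level of OP50 replicate 2 touches every comparison with OP50 below.

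Within a library the genes of a subunit kept close together. The SD of the deviations over the small subunit genes was 0.12 and 0.04 for OP50 + LL100933, 0.03 and 0.06 for OP50 + LL12007 and 0.06 and 0.05 for OP50. Over the large subunit genes it was 0.14 and 0.06, 0.09 and 0.16, and 0.11 and 0.16. After each library's median was taken off, 60 of 80 genes varied over the 6 libraries by an SD under 0.1. Those that varied most were *rpl-11.1* (SD 0.48), *rpl-25.2* (0.30), *rpl-41.2* (0.29), *rpl-25.1* (0.24), *rpl-41.1* (0.24), *rpl-11.2* (0.22) and *rpl-24.2* (0.22), 7 of the 8 members whose name ends in the number of a copy. The small subunit gene that varied most was *rps-14* (0.18), which was 0.33 above its library's median in OP50 + LL100933 replicate 1 and between -0.19 and 0.05 in the others.

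**Figure D2:**
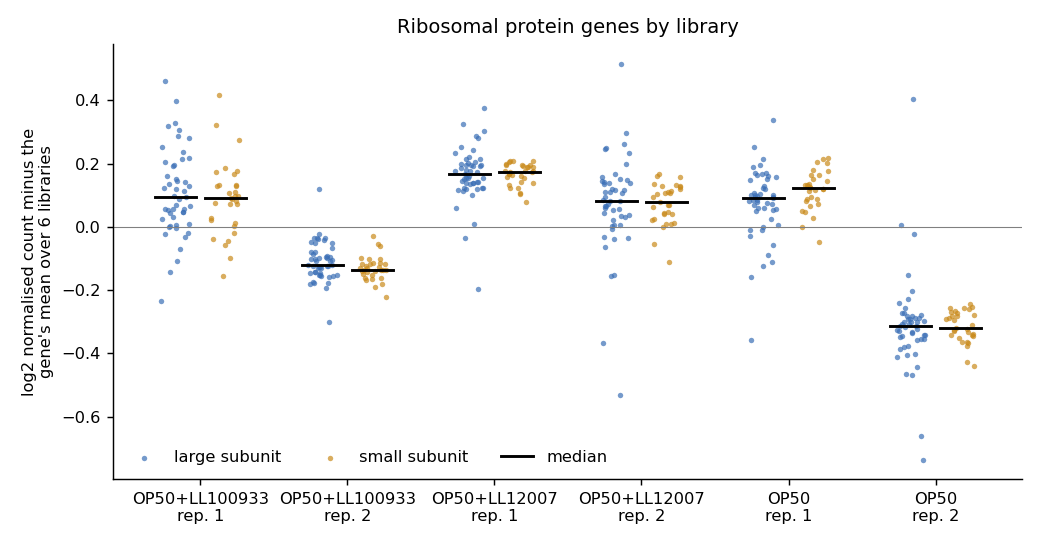
Log2 normalised count of the 80 tested ribosomal protein genes minus the gene's mean over the 6 libraries, by library, for large (blue) and small (ochre) subunit genes, with medians as black lines. In OP50 replicate 2 the median deviation is -0.31 for the large and -0.32 for the small subunit, the lowest of the 6 libraries.

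As a share of all counts, the ribosomal protein genes took 10.6% and 9.57% with OP50 + LL100933, 11.04% and 10.55% in the OP50 + LL12007 libraries and 10.7% and 8.18% with OP50. The 95% binomial (Wilson) intervals were at most 0.016 percentage points to either side and cover counting error only. The large subunit took 6.51% and 5.84%, 6.69% and 6.37%, and 6.44% and 4.97% in the same order, and the small subunit 4.11% and 3.73%, 4.35% and 4.18%, and 4.22% and 3.21%. Relative to OP50, the mean share over all members was 0.67 percentage points higher with OP50 + LL100933 and 1.37 points higher with OP50 + LL12007, where the SD of libraries within groups was 1.12 points. Neither diet was apart from OP50, since OP50 replicate 1 lay above the lower library of each. Without OP50 replicate 2 the differences became -0.57 and 0.13 points, and without OP50 replicate 1 they became 1.91 and 2.62 points. Counts of the large subunit were 1.52 to 1.58 times those of the small subunit in the 6 libraries.

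With OP50 + LL12007 3 genes of the large subunit were higher than with OP50, 1 was lower, and none of the small subunit was called. Over all tested genes 8.76% were called higher and 7.71% lower. The median log2 fold change was 0.21 (0.23 for the large and 0.21 for the small subunit), against 0.02 over all tested genes, and 77 of 80 genes had a value above 0. At an unadjusted p under 0.05 there were 11 of 80 genes, 10 of them of the large subunit, against 36.9% of all tested genes.

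*rpl-41.2*, 1 of the 2 genes of a very small protein of the large subunit, had 3278 and 3615 normalised counts with OP50 + LL12007, against 2268 and 1834 with OP50. Its log2 fold change was 0.75 (SE 0.13, adjusted p = 0.0196 from edgeR). Both OP50 + LL12007 libraries were also above the OP50 + LL100933 libraries, which had 2150 and 2469. The neighbouring copy *rpl-41.1* had 260 and 262 normalised counts with OP50 + LL12007, against 170 and 196 with OP50, with a log2 fold change of 0.51 that missed the threshold (SE 0.18, adjusted p = 0.0726 from edgeR). The copies lie side by side on chromosome I (WBcel235, 4789190 to 4789592 and 4790292 to 4790649) and encode near-identical proteins. It is not stated how the counting treated reads that match both, so the values of each are uncertain.

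*rpl-38*, whose protein in mice is needed for the translation of certain developmental mRNAs, had 6748 and 6790 normalised counts with OP50 + LL12007, against 5202 and 3995 with OP50. It rose by 0.56 on the log2 scale (SE 0.14, adjusted p = 0.0335 from edgeR), and the groups did not overlap. *rpl-37* had 490 and 471 normalised counts with OP50 + LL12007, against 364 and 329 with OP50, and rose by 0.47 (SE 0.13, adjusted p = 0.0429 from edgeR). A more abundant gene, named *W01D2.1* in the count tables and *rpl-37.1* in RefSeq, averaged 6813 ± 116 normalised counts with OP50 + LL12007 and 5414 ± 1035 with OP50 (SD, n = 2 each). Its log2 fold change of 0.33 was not called (adjusted p = 0.136 from edgeR).

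*rpl-11.1*, an autosomal gene for a protein that binds the 5S ribosomal RNA, was the 1 member called lower. It had 9315 and 7393 normalised counts with OP50 + LL12007, against 13510 and 14130 with OP50. It fell by 0.73 on the log2 scale (SE 0.20, adjusted p = 0.0425 from edgeR). It was also the 1 member of these 4 for which OP50 replicate 2 was not below OP50 replicate 1.

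These 4 calls depended on single libraries. Without OP50 replicate 2, *rpl-41.2* alone was called (log2 fold change 0.61, adjusted p = 0.0288 from edgeR), and the adjusted p was 0.0573 for *rpl-38*, 0.0602 for *rpl-11.1* and 0.120 for *rpl-37*, with the directions kept. The median of all members was 0.44 without OP50 replicate 1, against 0.03 without OP50 replicate 2. Without either OP50 + LL12007 library the 4 calls were lost, as were most calls over all tested genes. The log2 fold changes of *rpl-41.2*, *rpl-38*, *rpl-37* and *rpl-11.1* were then 0.82, 0.56, 0.44 and -0.90 without replicate 1. Without replicate 2 they were 0.70, 0.57, 0.52 and -0.55. Without OP50 + LL100933 replicate 1 *rpl-37* missed the threshold (adjusted p = 0.0501 from edgeR). When libraries were scaled to their summed ribosomal protein counts, so that a fold change is relative to the ribosome's other genes, *rpl-11.1* alone was called, with a log2 fold change of -0.93 (adjusted p = 0.00330 from edgeR), and the values of *rpl-41.2*, *rpl-38* and *rpl-37* were 0.58, 0.39 and 0.29.

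Of the small subunit, 31 of 31 genes had a log2 fold change above 0 with OP50 + LL12007, between 0.07 and 0.35, and none was called by edgeR, the lowest adjusted p being 0.0995, with 1 gene at an unadjusted p under 0.05. The 2 highest were *rps-21* and *rps-25*. *rps-21* had 3576 and 3449 normalised counts with OP50 + LL12007, against 3240 and 2283 with OP50 (log2 fold change 0.35, SE 0.17). *rps-25*, whose protein sits on the head of the small subunit, had 7619 and 6885 with OP50 + LL12007, against 6583 and 4897 with OP50 (0.34, SE 0.18). In both genes OP50 replicate 1 was just below the lower OP50 + LL12007 library. *rps-6*, the substrate of S6 kinase, had 51710 and 48340 with OP50 + LL12007, against 52080 and 39980 with OP50 (0.12, SE 0.20), so that its groups overlapped. DESeq2 on the same libraries called no small subunit gene.

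In 37 of 80 genes both OP50 + LL12007 libraries lay above both OP50 libraries, and in 2 both lay below, *rpl-11.1* and *rpl-25.2*. Over all tested genes these shares were 34.6% and 33.9%. Those above were 27 of 49 genes of the large subunit and 10 of 31 of the small subunit. Among them was *rpl-5*, the partner of *rpl-11.1* and its copy on the 5S RNA. *rpl-5* had 34680 and 33320 normalised counts with OP50 + LL12007, against 32270 and 24730 with OP50 (log2 fold change 0.25, SE 0.18). The stalk genes *rla-0*, *rla-1* and *rla-2*, whose proteins recruit the elongation factors, had log2 fold changes of 0.21, 0.26 and 0.34, and *rla-2* alone of these was apart.

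**Figure D3:**
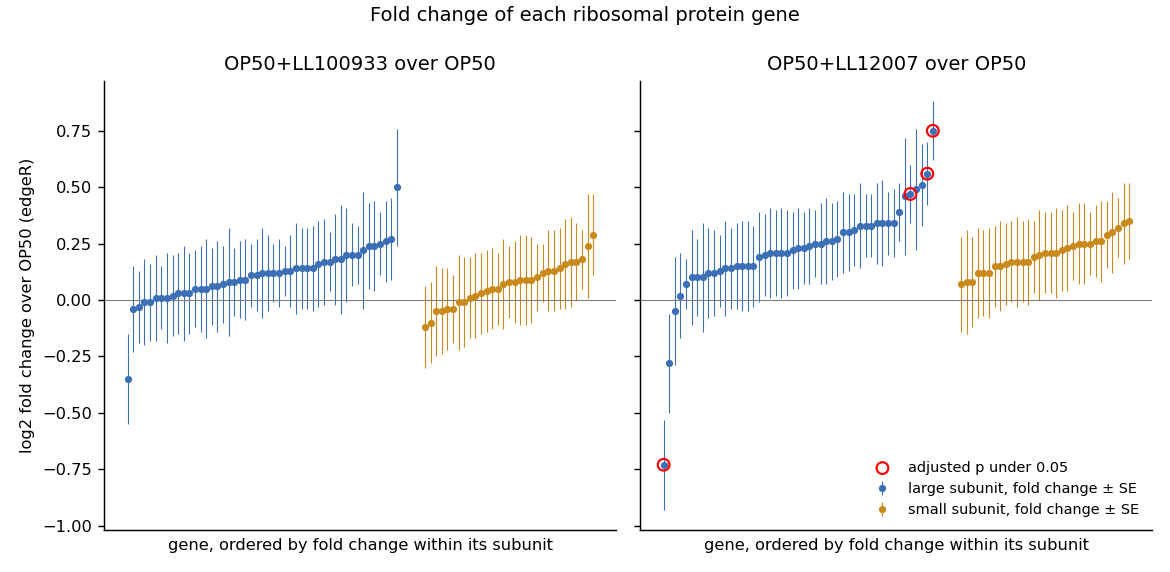
Log2 fold change over OP50 (points) with its SE (bars) for the 80 tested ribosomal protein genes, large subunit in blue and small subunit in ochre, ordered by value within each subunit, with OP50 + LL100933 on the left and OP50 + LL12007 on the right. Red rings mark the 4 genes with an adjusted p under 0.05, all with OP50 + LL12007, and the lowest value in either panel is that of *rpl-11.1*, at -0.35 and -0.73.

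With OP50 + LL100933 no ribosomal protein gene was called, where edgeR called 4.38% of all tested genes higher and 2.24% lower. None of the 80 had an unadjusted p under 0.05, against 31.5% of all tested genes, and DESeq2 called none. The median log2 fold change was 0.09 (0.12 for the large and 0.08 for the small subunit), against 0.02 over all tested genes, and 67 of 80 genes had a value above 0. The median became -0.07, with 17 of 80 above 0, without OP50 replicate 2, -0.04 without OP50 + LL100933 replicate 1, and 0.30 without OP50 replicate 1.

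The member with the highest value was *rpl-25.1*, with 15060 and 10160 normalised counts with OP50 + LL100933, against 10880 and 6925 with OP50, so that the groups overlapped (log2 fold change 0.50, SE 0.26, adjusted p = 0.215 from edgeR). The lowest was *rpl-11.1*, with 13050 and 8672 with OP50 + LL100933, against 13510 and 14130 with OP50 (-0.35, SE 0.20, adjusted p = 0.265 from edgeR). Its groups did not overlap, but OP50 + LL100933 replicate 1 was close to OP50. Of the small subunit, *rps-25* was highest (0.29, SE 0.18) and *rps-5*, whose protein lies at the exit site of tRNA, was lowest (-0.12, SE 0.18). Both OP50 + LL100933 libraries lay above both OP50 libraries in 4 genes (*rpl-38*, *rpl-39*, *rpl-24.2* and *rpl-37*), and below them in *rpl-11.1*, against 29.2% and 29.9% of all tested genes.

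When OP50 + LL12007 was set against OP50 + LL100933, edgeR called no gene higher and none lower (0% of all tested genes). Among the members 2 of 80 had an unadjusted p under 0.05, against 10.3% of all tested genes, *rpl-41.2* and *rpl-37*, and DESeq2 called 1, *rpl-41.2*. *rpl-41.2* had 3278 and 3615 normalised counts with OP50 + LL12007, against 2150 and 2469 with OP50 + LL100933 (log2 fold change 0.58, SE 0.13, adjusted p = 0.215 from edgeR, and 0.0341 from DESeq2). *rpl-37* had 490 and 471 with OP50 + LL12007, against 368 and 386 with OP50 + LL100933 (0.35, SE 0.13, adjusted p = 0.408 from edgeR). The median over the members was 0.14 for both the large and the small subunit, against -0.00 over all tested genes. In 40 of 80 genes both OP50 + LL12007 libraries lay above both OP50 + LL100933 libraries and in none below, against 24.6% and 21.9% of all tested genes. This comparison does not use the OP50 libraries for its values, and the median was 0.25 without OP50 + LL100933 replicate 1 and 0.04 without OP50 + LL100933 replicate 2.

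The members that differed most from the rest were copies. Of the 4 pairs of numbered copies, *rpl-11.1* and *rpl-25.2* are autosomal (chromosomes V and I) and have an X-linked partner, *rpl-11.2* and *rpl-25.1*. In both pairs the autosomal copy was lower relative to the X-linked one with OP50 + LL12007 than with OP50. The pairs *rpl-24.1* and *rpl-24.2*, and *rpl-41.1* and *rpl-41.2*, lie on chromosome I. *rpl-24.2* is a copy by name only, since its product resembles an assembly factor.

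In counts, *rpl-11.1* had 14396 and 8097 with OP50 + LL100933, 8426 and 6415 in the OP50 + LL12007 libraries and 16231 and 13979 with OP50. *rpl-11.2* had 51452 and 41188, 51133 and 46018, and 60912 and 26830 in the same order. The X-linked copy was the more abundant in each library, by 3.57 and 5.09 times with OP50 + LL100933, 6.07 and 7.17 times with OP50 + LL12007 and 3.75 and 1.92 times with OP50. The log2 ratio of *rpl-11.1* over *rpl-11.2* averaged -2.72 ± 0.17 with OP50 + LL12007 and -1.42 ± 0.68 with OP50 (SD, n = 2 each), a difference of -1.30, and the groups did not overlap. With OP50 + LL100933 it averaged -2.09 ± 0.36, a difference of -0.67 from OP50, and the groups overlapped. When OP50 replicate 2 was left out the differences were -0.81 for OP50 + LL12007 and -0.18 for OP50 + LL100933. In the fit of all genes *rpl-11.2* itself had a log2 fold change of 0.49 with OP50 + LL12007 (SE 0.27, adjusted p = 0.204 from edgeR) and 0.22 with OP50 + LL100933 (SE 0.26, adjusted p = 0.593 from edgeR). It was called higher with both diets without OP50 replicate 1 (1.01 and 0.74 for OP50 + LL12007 and OP50 + LL100933), and with OP50 + LL12007 without the filter on low counts (0.51). Summed over both copies the level was 4784 and 4203 RPKM with OP50 + LL100933, 5230 and 4789 in the OP50 + LL12007 libraries and 5139 and 3351 with OP50, so that all but 1 of the *Lactococcus* libraries lay between the OP50 libraries.

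In the second pair the autosomal copy was the more abundant. *rpl-25.2* had 69301 and 39510 counts with OP50 + LL100933, 42170 and 32148 in the OP50 + LL12007 libraries and 64539 and 47479 with OP50. *rpl-25.1* had 16615 and 9484, 12018 and 9735, and 13075 and 6852 in the same order. The autosomal copy thus exceeded the X-linked one 4.17 times in both OP50 + LL100933 libraries, 3.51 and 3.30 times with OP50 + LL12007, and 4.94 and 6.93 times with OP50. The log2 ratio of *rpl-25.1* over *rpl-25.2* was 0.49 higher with OP50 + LL100933 and 0.78 higher with OP50 + LL12007 than with OP50, and neither diet overlapped with OP50. Without OP50 replicate 2 these differences were 0.24 and 0.54. Neither copy was called in either comparison, but *rpl-25.1* was called higher with both diets without OP50 replicate 1 (log2 fold changes 0.86 for OP50 + LL100933 and 0.82 for OP50 + LL12007) and without the filter on low counts (0.52 and 0.47). *rpl-25.2* had a log2 fold change of -0.28 with OP50 + LL12007 (SE 0.22, adjusted p = 0.377 from edgeR), with both libraries below OP50, and 0.05 with OP50 + LL100933 (SE 0.22).

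The pairs on chromosome I moved less. The log2 ratio of *rpl-24.1* over *rpl-24.2* averaged 5.07 ± 0.13 with OP50 + LL100933, 5.31 ± 0.05 with OP50 + LL12007 and 5.22 ± 0.36 with OP50 (SD, n = 2 each). That of *rpl-41.1* over *rpl-41.2* averaged -3.40 ± 0.35, -3.72 ± 0.09 and -3.48 ± 0.36 in the same order. In both pairs each diet overlapped with OP50. With 2 libraries against 2, a two-sided exact permutation test cannot give a p below 0.333, so this test could not pass the threshold for any ratio, whatever its size. The values for OP50 + LL12007 against OP50 were 0.333 for both pairs with an X-linked copy, 1 for *rpl-24.1* over *rpl-24.2* and 0.667 for *rpl-41.1* over *rpl-41.2*, by this exact test and unadjusted.

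**Figure D4:**
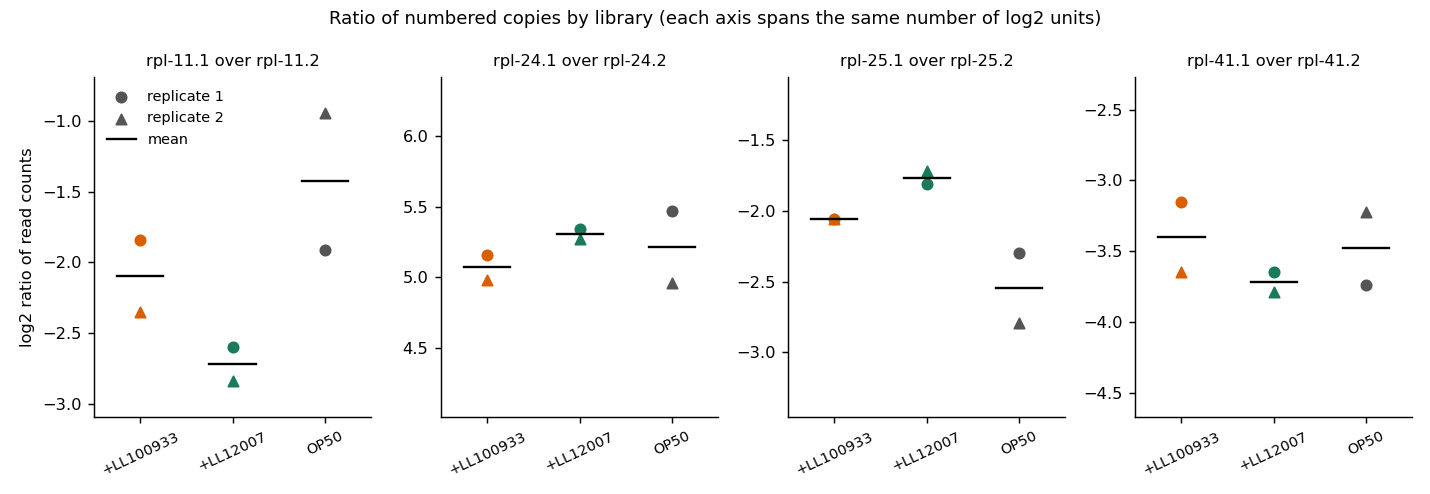
Log2 ratio of read counts of numbered copies (first name over second) in each library, with OP50 + LL100933, OP50 + LL12007 and OP50 from left to right, circles for replicate 1, triangles for replicate 2 and black lines for means. *rpl-11.1* over *rpl-11.2* is lower, and *rpl-25.1* over *rpl-25.2* higher, in both OP50 + LL12007 libraries than in both OP50 libraries, while *rpl-24.1* over *rpl-24.2* and *rpl-41.1* over *rpl-41.2* overlap between these groups.

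Markers of the germline were lower with both *Lactococcus* diets. Of 14 germline markers edgeR called 2 lower with OP50 + LL100933 and 10 lower with OP50 + LL12007, against 2.24% and 7.71% of all tested genes. Their median log2 fold changes were -0.45 and -0.60. Their summed level was 3091 and 2581 CPM with OP50 + LL100933, 2642 and 2410 in the OP50 + LL12007 libraries and 3539 and 4094 with OP50, and none of the 14 was at 0 in any library. Of 11 oocyte and eggshell markers 4 and 11 were called lower, and their sum was 5176 and 4601 CPM, 4593 and 4152, and 6568 and 7348 in the same order. OP50 replicate 2 had the highest germline and oocyte sums and the highest share of *rpl-11.1* and *rpl-25.2* in their pairs, and OP50 + LL12007 replicate 2 had the lowest of all of these. Between these the orders differed. The log2 ratio of *rpl-11.1* over *rpl-11.2* was -1.84 in OP50 + LL100933 replicate 1 and -1.91 in OP50 replicate 1, which had the higher germline sum. That of *rpl-25.1* over *rpl-25.2* was -2.06 in both OP50 + LL100933 libraries, whose germline sums differed. Without OP50 replicate 2 there were 0 and 8 germline markers called lower, and without either library of a *Lactococcus* diet none was called for that diet, at a median log2 fold change that stayed below 0. The germline's part in the ratios was not tested. Outside the ribosome, both genes of the translation factor eIF5A were called with OP50 + LL12007, and neither was called with OP50 + LL100933. *iff-1*, the germline gene, averaged 4138 ± 297 normalised counts with OP50 + LL12007 and 6582 ± 183 with OP50 (log2 fold change -0.67, adjusted p = 0.0290 from edgeR). *iff-2*, the gene of the body, averaged 9189 ± 163 and 5887 ± 1801 (0.64, adjusted p = 0.0485 from edgeR). The call of *iff-2* was lost without OP50 replicate 2. Any link of these genes to the ratios was not tested.

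Other markers moved too. With OP50 + LL100933 2 of 13 body wall muscle markers and 4 of 15 neuron markers were called higher, against 4.38% of all tested genes. With OP50 + LL12007 these were 3 and 6, against 8.76%, and none was called lower with either diet. The muscle sum was 18290 and 18630 CPM with OP50 + LL100933, 17410 and 18100 in the OP50 + LL12007 libraries and 14410 and 11070 with OP50. It was thus lowest in OP50 replicate 2. The 14 intestine markers summed to 60490 and 56750, 60710 and 52830, and 66200 and 90950 CPM, so that OP50 replicate 2, the library with the least ribosomal protein RNA, had the highest sum. Its most abundant genes are the yolk protein genes *vit-2*, *vit-5* and *vit-6*, which had log2 fold changes of -0.44, -0.62 and -0.45 with OP50 + LL100933 and -0.61, -0.69 and -0.45 with OP50 + LL12007, none of them called. Of the 14 intestine markers 11 and 10 had values above 0, with medians of 0.04 and 0.20, and 1 was called higher with each diet and none lower. A share of 1 in 14 is near that of all tested genes called higher. No muscle, neuron or intestine marker was at 0 in any library. Their part in the values of the ribosomal protein genes was not tested.

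Length and abundance both went with the fold change among the members. The Spearman correlation of log2 fold change with gene length across the 80 genes, which share the 6 libraries, was -0.53 in the comparison of OP50 + LL100933 with OP50 and -0.57 in that of OP50 + LL12007. With mean abundance it was -0.39 and -0.61. The 217 other genes at or above the members' lower quartile of abundance had median log2 fold changes of 0.07 with OP50 + LL100933 and 0.10 with OP50 + LL12007. The medians of the 80 members were 0.09 and 0.21. The 27 members of at most 500 bases had a median log2 fold change of 0.16 with OP50 + LL100933, against 0.17 for 1063 other genes of that length, and the 49 members of 500 to 1000 bases 0.05, against 0.04 for 3738 others. With OP50 + LL12007 the medians were 0.31 for the shorter members, against 0.11 for other genes, and 0.17 for the longer members, against 0.02. The 4 members over 1000 bases had medians of 0.06 and 0.21 with OP50 + LL100933 and OP50 + LL12007, slightly above those of 500 to 1000 bases. The 3 members called higher with OP50 + LL12007 are 287, 343 and 354 bases long. The part of length or abundance in their values was not tested.

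Ribosomal proteins whose gene name falls outside the rule had values like those of the members. These are *ubl-1* and *ubq-2*, which encode a ubiquitin fused to a small and a large subunit protein, and 2 genes that RefSeq names as ribosomal protein genes, *W01D2.1* and *Y37E3.8*. None was called. *ubl-1* averaged 27610 ± 42.3 normalised counts with OP50 + LL12007 and 23200 ± 4605 with OP50 (SD, n = 2 each, log2 fold change 0.25), and the 4 genes ranged from 0.16 to 0.33 with OP50 + LL12007 and from -0.02 to 0.08 with OP50 + LL100933. *rack-1*, a protein bound to the small subunit, had log2 fold changes of 0.05 with OP50 + LL100933 and 0.27 with OP50 + LL12007. It belongs to a list of 3 ribosome-associated genes, in which it had the highest value with OP50 + LL12007. The list ranged from -0.04 to 0.05 with OP50 + LL100933 and from -0.01 to 0.27 with OP50 + LL12007. Its medians were 0.05 and 0.09, and no gene of the list was called.

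The genes that build the ribosome mostly had values below 0, since of 33 tested 0 lay above it with OP50 + LL100933 and 5 with OP50 + LL12007. Among these genes of the nucleolus and ribosome assembly, 4 were lower with OP50 + LL100933 (*ruvb-1*, *ruvb-2*, *nol-56* and *nol-10*) and 2 with OP50 + LL12007 (*ruvb-2* and *nol-10*), against 2.24% and 7.71% of all tested genes, and none was higher. With OP50 + LL12007 the 2 of 33 are no larger a share than the background. Their median log2 fold change was -0.28 and -0.19, against 0.02 over all tested genes in both comparisons. *ruvb-1*, an ATPase that helps to assemble the particles modifying ribosomal RNA, averaged 1287 ± 65.2 normalised counts with OP50 + LL100933 and 1972 ± 125 with OP50 (log2 fold change -0.62, adjusted p = 0.0238 from edgeR). Of 6 genes of RNA polymerase I, which makes ribosomal RNA, *rpoa-2* was lower with both diets, at 708 ± 32.6 normalised counts with OP50 + LL100933, 741 ± 17.3 with OP50 + LL12007 and 973 ± 59.0 with OP50 (adjusted p = 0.0462 and 0.0436 from edgeR). When OP50 replicate 2 was left out, the assembly genes called lower were 2 and 0 and no RNA polymerase I gene was called, and without either library of a *Lactococcus* diet no assembly gene was called for that diet. Germline markers were lower in the same libraries, and their part in these values was not tested.

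Of 25 initiation factor genes *ife-3*, a cap-binding eIF4E, was lower with both diets (log2 fold change -0.53 and -0.52, adjusted p = 0.0407 and 0.0245 from edgeR), and the medians of the list were -0.25 with OP50 + LL100933 and -0.03 with OP50 + LL12007. Among 9 elongation factor genes, *iff-1* and *iff-2* with OP50 + LL12007 were the 2 called, and the list medians were -0.07 and -0.08. Of 16 genes of TOR and S6 kinase signalling, *nprl-3*, of a complex that restrains TOR, was lower with OP50 + LL100933 (-0.46, adjusted p = 0.0466 from edgeR) and *atf-5*, a transcription factor of the amino acid response, was higher with OP50 + LL12007 (0.47, adjusted p = 0.0494 from edgeR). Without OP50 replicate 2 neither list of elongation factors nor of TOR signalling had a gene called higher, and without either library of a *Lactococcus* diet none of the genes of these 3 lists was called for that diet. Single calls in lists of this size are near the share of all tested genes called, which was 4.38% higher and 2.24% lower with OP50 + LL100933 and 8.76% and 7.71% with OP50 + LL12007.

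Mitochondrial ribosomal protein genes, which serve the ribosome of another compartment, had no call among 71 with either diet by edgeR, with 18 at an unadjusted p under 0.05 with OP50 + LL100933, against 31.5% of all tested genes, and 1 with OP50 + LL12007, against 36.9%. Their medians were -0.23 with OP50 + LL100933 and -0.00 with OP50 + LL12007, below those of the cytosolic genes (0.09 and 0.21). The 33 proteasome genes had medians of -0.31 and -0.25 and the 32 aminoacyl-tRNA synthetase genes, which load the tRNAs, had medians of -0.30 and -0.15. With OP50 + LL100933 and OP50 + LL12007 edgeR called 2 and 1 proteasome genes and 3 and 0 synthetase genes lower, and none higher. Over all tested genes 2.24% and 7.71% were called lower.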

How the data were processed

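Whole-worm RNA was poly(A)-selected and sequenced, and the deposited values are raw counts per gene, which the authors made by trimming reads (Trim Galore, Trimmomatic and cutadapt), aligning them to ce11 (WBcel235) with STAR and counting with featureCounts. Tool versions differ between the paper and the submitters' processing notes, which name STAR 2.7.2b and featureCounts 1.6.4. How strand and multiply matching reads were handled is not stated.

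All 6 libraries were fitted with edgeR 4.0.16 (R 4.3.3): filterByExpr, TMM factors, robust glmQLFit and glmQLFTest with a term for diet, and Benjamini-Hochberg adjustment over 14899 tested genes. The residual degrees of freedom were 3. DESeq2 1.42.0 was an alternative. SEs were derived from the size of each log2 fold change over √F. Normalised counts are scaled to the mean effective library size, RPKM use the deposited gene lengths, and ratios of copies added 0.5 counts. The code was tested on simulated data.

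The members, lists and tests were chosen with earlier results of these data known. *W01D2.1* and *Y37E3.8* were added to their list after the tables had been read. Named members are the 5 highest and 5 lowest fold changes of each comparison, called members, the 5 highest and 5 lowest levels, numbered copies and members failing the filter. Of other lists up to 4 called genes were named, or up to 2 abundant ones. *rps-6*, *rps-21*, *rpl-5*, *rpl-39*, *rla-0*, *rla-1*, *ubl-1*, *rack-1* and the *vit* genes were named after their values were seen. Epidermis, pharynx, embryo and sperm markers were also counted. With OP50 + LL100933 and OP50 + LL12007 edgeR called 0 and 3 of 8 epidermis markers higher, 0 and 1 lower, 7 and 4 of 10 pharynx markers higher, 0 and 3 of 8 embryo markers lower, and 0 and 1 of 9 sperm markers lower. Over all tested genes 4.38% and 8.76% were called higher and 2.24% and 7.71% lower. A further list of 2 genes was counted too. With OP50 + LL12007 *cep-1* was called lower (log2 fold change -0.64), and the other gene of the list was not called (0.25). Sequences were not analysed here.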

Additional observations from a re-analysis of the deposited data

How the results depend on the processing

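Leaving out 1 library kept the call of 64 to 78 of 78 values of named members, but moved the counts of calls, medians and shares. With each library left out in turn, members called higher numbered 0 to 4 for OP50 + LL100933, 0 to 51 for OP50 + LL12007 and 0 to 1 between the diets, and members called lower with OP50 + LL12007 0 to 1. Median log2 fold changes lay between -0.05 and 0.30 (large subunit) and -0.12 and 0.29 (small) for OP50 + LL100933, and between 0.06 and 0.44 and 0.02 and 0.44 for OP50 + LL12007. Differences in share from OP50, in percentage points, were -0.57 to 1.91 for OP50 + LL100933 (large -0.27 to 1.21, small -0.30 to 0.71) and 0.13 to 2.62 for OP50 + LL12007 (large 0.08 to 1.56, small 0.05 to 1.06). The log2 ratio of *rpl-11.1* over *rpl-11.2* differed from OP50 by -1.15 to -0.18 and -1.78 to -0.81, that of *rpl-24.1* over *rpl-24.2* by -0.40 to 0.11 and -0.16 to 0.35, and that of *rpl-25.1* over *rpl-25.2* by 0.24 to 0.73 and 0.54 to 1.03, for OP50 + LL100933 and OP50 + LL12007. Over all tested genes the share called was 0.0455% to 11.03% higher and 0% to 6.78% lower for OP50 + LL100933, 0.0325% to 17.1% and 0% to 12.4% for OP50 + LL12007, and 0% to 1.72% and 0% to 1.28% between the diets.

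Other settings gave these counts of members called higher. Without the filter on low counts there were 1 for OP50 + LL100933 (*rpl-25.1*), 7 for OP50 + LL12007 (also *rpl-11.2*, *rpl-25.1*, *rpl-39* and *rpl-41.1*) and 1 between the diets. Scaled to ribosomal protein counts there were 0 for OP50 + LL12007, and this scaling put the median of all genes at -0.06, -0.18 and -0.11 for OP50 + LL100933, OP50 + LL12007 and the comparison between the diets. Between the diets there was 1 with DESeq2 and 1 with the pair of groups fitted alone. DESeq2 also called *rpl-39* higher with OP50 + LL12007 (0.39, adjusted p = 0.04) and lost *rpl-37*. The cause was not tested.

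Of all genes with an adjusted p, 4.38% were called higher and 2.24% lower for OP50 + LL100933. These shares were 8.07% and 4.67% with DESeq2, 1.09% and 0.315% when scaled to ribosomal protein counts, 1.82% and 0.463% with the replicate block, and 0.426% and 0.0338% with the pair of groups alone. Without the filter 7.82% were higher, and 0.953% were lower with upper-quartile factors and 1.13% with library totals. For OP50 + LL12007 the shares of 8.76% and 7.71% became 1.67% and 4.396% when scaled to ribosomal protein counts. Between the diets, where none was called, they were 0.643% and 0.519% with DESeq2, 0.175% and 0.705% when scaled to ribosomal protein counts, 1.57% and 1.56% without the filter, and 1.61% and 1.18% with the pair alone.

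Same-numbered libraries deviated with correlations of 0.01, -0.03 and 0.18 over all genes and 0.10, 0.14 and 0.75 over the members, and replicate 1 was the higher for 77 (OP50), 74 (OP50 + LL100933) and 73 (OP50 + LL12007) of 80 members. The labels tie the numbers to no shared batch. For OP50 + LL12007 the replicate block gave 2 members called higher and 1 lower, and *rpl-37* missed the threshold (0.47, adjusted p = 0.0565 from edgeR). Of 1170 values of named members under all alternatives, 98 changed sign, none of them called.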
